A study of Mus musculus with 8 samples.

Results

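Transcripts of Aldh2 and of 9 further aldehyde dehydrogenases that do not work mainly on retinaldehyde were followed in primary tubular epithelial cells of mouse kidney. The members were chosen by symbol (Aldh2, Aldh1b1, Aldh3a2, Aldh3b1, Aldh4a1, Aldh5a1, Aldh6a1, Aldh7a1, Aldh9a1 and Aldh16a1), and all 10 were present among the 14145 genes of the table. The KO group was 4 libraries of cells from mice labelled Aldh2TEC-KO, a name that places the knockout of Aldh2 in tubular epithelial cells, and the WT group was 4 libraries of cells from mice labelled Aldh2Ctrl. Cells of both groups were grown in DMEM/F12 with fetal bovine serum and were left untreated. The sources used here give neither the promoter that drives the deletion nor the strain, the age of the mice or the animals behind a library. The p-values therefore refer to the scatter of these 8 libraries, part of which may be technical.

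Aldehyde dehydrogenases oxidise aldehydes to carboxylic acids, or to acyl-coenzyme A in the case of Aldh6a1, with a nicotinamide cofactor. Aldh2 works in the mitochondrial matrix on acetaldehyde and on hydroxynonenal and other aldehydes released when membrane lipids are oxidised. Several relatives have a place in particular metabolic routes: breakdown of proline (Aldh4a1), GABA (Aldh5a1), valine and thymine (Aldh6a1), lysine and choline (Aldh7a1), and carnitine synthesis (Aldh9a1). Aldh3a2 and Aldh3b1 clear long-chain lipid aldehydes. The kidney tubule is rich in mitochondria and breaks down amino acids, fatty acids and lipid peroxidation products at a high rate.

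Values are FPKM, a read count divided by gene length and by library depth, with recovered depths of 17890000 to 18760000 reads or fragments in KO and 17050000 to 17760000 in WT libraries. Of 11 renal epithelial markers all 11 were in the table, with summed levels of 890 to 6676 FPKM in KO and 1484 to 3280 FPKM in WT libraries, most of it from Krt8, Krt18 and Krt19. Of these 11, 5 had a higher and 6 a lower KO mean (median log2 fold change -0.11), none with a limma adjusted p below 0.05. Among the lower were Epcam (61.4 FPKM in KO and 132 FPKM in WT, limma adjusted p = 0.177), Cdh1 (78.8 FPKM in KO and 163 FPKM in WT, 0.220) and Lhx1, lower in every KO library (1.81 FPKM in KO and 5.80 FPKM in WT, 0.110). Cdh16 and Pax8 were detected in every library. Of 33 proximal tubule markers 15 were in the table, at summed levels of 32.9 to 145 FPKM in KO and 55.1 to 171 FPKM in WT libraries. Of these 15, 6 had a higher and 9 a lower KO mean (median log2 fold change -0.27). Slc34a1, Slc5a2 and Cubn, defining markers of that segment, were listed but had no entry under these symbols in the table. The table held all of the 16 macrophage and leukocyte markers, summing to 592, 1778, 235 and 1150 FPKM in KO 1 to 4 and to 1071, 98.9, 113 and 120 FPKM in WT 1 to 4. Fibroblast markers (9 of 12 in the table) summed to 595 to 1784 FPKM in KO and 135 to 1187 FPKM in WT libraries, most of it Acta2 (561 to 1746 FPKM in KO and 98.4 to 726 FPKM in WT). Of the 9, 6 had a lower KO mean (median log2 fold change -0.31), and Pdgfrb (1.59 FPKM in KO and 7.66 FPKM in WT) and Col3a1 (1.40 FPKM in KO and 8.33 FPKM in WT) were below every WT library in all 4 KO libraries. Distal tubule markers (6 of 17) summed to 2.65 to 21.8 and 12.6 to 63.3 FPKM in KO and WT, and endothelial markers (3 of 10) to 1.55 to 3.29 and 5.10 to 7.16 FPKM in KO and WT. All 6 distal markers had a lower KO mean (median log2 fold change -1.31), as had all 3 endothelial markers (-0.66). None of them had a limma adjusted p below 0.05. KO 1 and KO 2 were female and the other 6 libraries male by Xist and 4 Y-linked transcripts. In bulk RNA, fewer cells of a type and less RNA per cell cannot be told apart.

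Aldh2 fell to 4.71% of its WT level in the KO cells. The transcript (ENSMUSG00000029455, GRCm38 chromosome 5, 121566027 to 121593824, minus strand, protein coding) stood at 0.879, 1.64, 1.20 and 1.26 FPKM in KO 1 to 4, against 31.1, 23.7, 25.5 and 25.2 FPKM in WT 1 to 4. All 4 KO libraries were low, and the groups were far apart. The means were 1.24 ± 0.310 FPKM in KO and 26.4 ± 3.24 FPKM in WT (SD, n = 4 each), and on the log2(FPKM + 1) scale the fold change was -3.61 (SE 0.17, limma adjusted p = 3.43e-05). Of the 10 members Aldh2 alone passed the threshold of an adjusted p below 0.05, which 0.0778% of all genes passed (11 of 14145), 0.0566% as lower and 0.0212% as higher in KO.

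**Figure D1:**
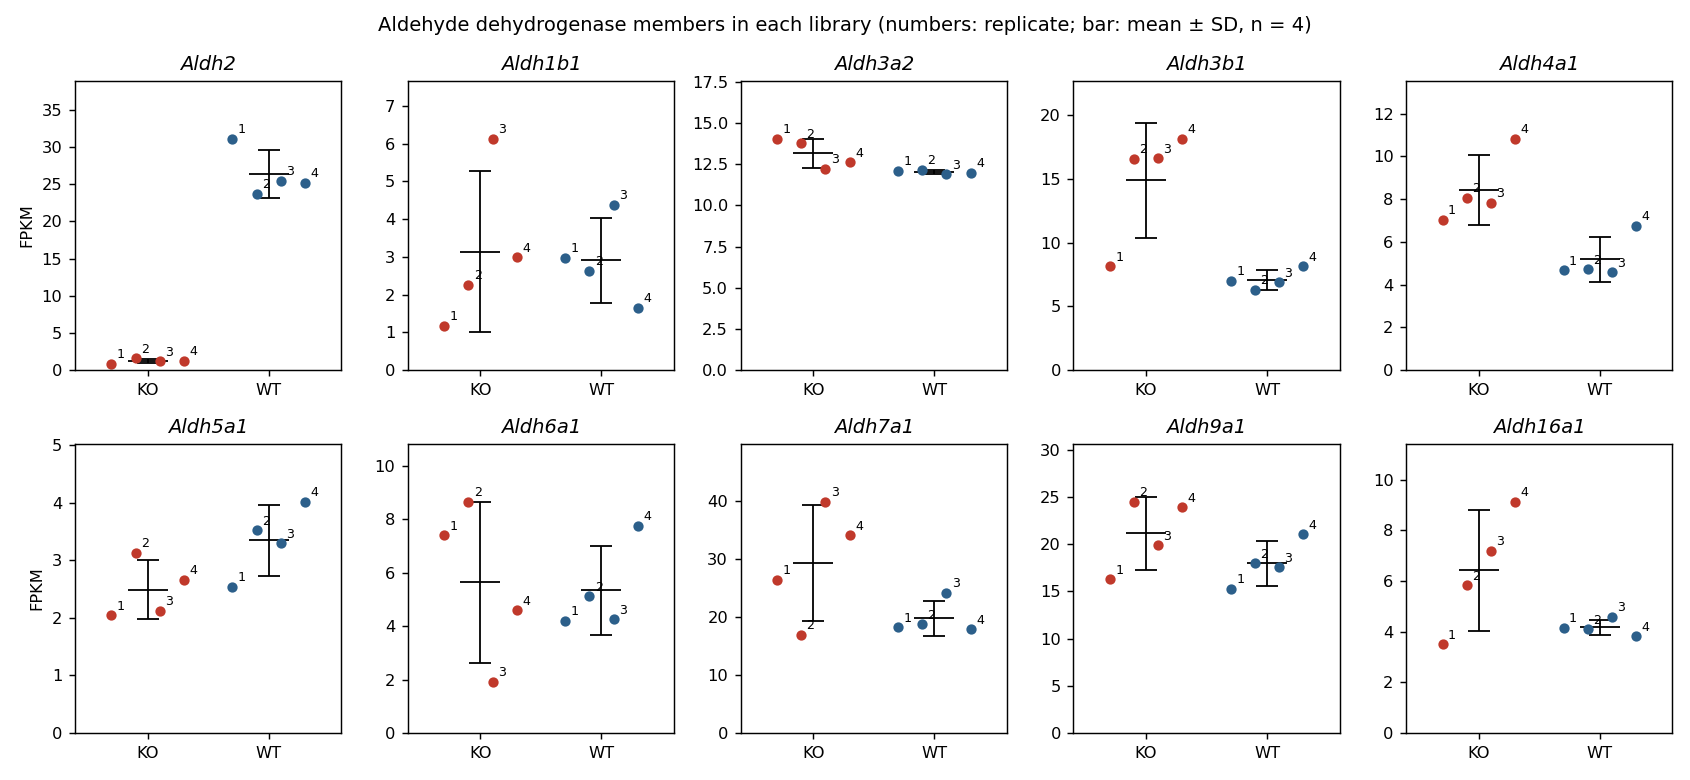
FPKM of each of the 10 members in the 4 KO (red, left) and 4 WT (blue, right) libraries, with numbers for the replicate and bars for the mean ± SD; each panel has its own axis from 0. Aldh2 lies at 0.879 to 1.64 FPKM in KO and 23.7 to 31.1 FPKM in WT libraries, and the other members lie much closer between groups.

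The Aldh2 signal left in the KO libraries exceeded the 3 reads that a count of 0 allows. It corresponded to 83, 150, 115 and 117 recovered reads in KO 1 to 4, against 2751, 2070, 2317 and 2239 reads in WT 1 to 4. The exact Poisson 95% interval, which covers counting error only, was 66.1 to 103 reads for KO 1 and 127 to 176 reads for KO 2. Which exons these reads came from cannot be read from a value per gene, so intact and truncated transcript were not separated. A small unclassified gene on the other strand, Gm42879, overlaps the Aldh2 locus by 130 bases.

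The genotype field of the labels names a different number for each KO sample (ALDH2, ALDH3, ALDH4 and ALDH5 for KO 1 to 4), and the members allow that to be read against the transcripts. Aldh2 was low in all 4. In KO 2, labelled ALDH3, Aldh3a2 was at 13.8 FPKM and Aldh3b1 at 16.6 FPKM, against 11.9 to 12.2 and 6.32 to 8.15 FPKM in WT libraries. In KO 3, labelled ALDH4, Aldh4a1 was at 7.84 FPKM, against 4.58 to 6.77 FPKM in WT libraries. In KO 4, labelled ALDH5, Aldh5a1 was at 2.66 FPKM, inside the WT range of 2.54 to 4.02 FPKM. No library other than those named KO showed a low Aldh2, and the samples were grouped by their titles.

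Ordered by level, Aldh2 was last of the 10 in KO cells and first in WT cells. In KO cells Aldh7a1 was the most abundant member at 29.3 ± 9.94 FPKM, followed by Aldh9a1 at 21.1 ± 3.85, Aldh3b1 at 14.9 ± 4.53, Aldh3a2 at 13.2 ± 0.881, Aldh4a1 at 8.44 ± 1.65, Aldh16a1 at 6.42 ± 2.37, Aldh6a1 at 5.65 ± 3.01, Aldh1b1 at 3.14 ± 2.12, Aldh5a1 at 2.49 ± 0.509 and Aldh2 at 1.24 ± 0.310 FPKM (SD, n = 4). In WT cells the order was Aldh2 at 26.4 ± 3.24, Aldh7a1 at 19.7 ± 2.97, Aldh9a1 at 18.0 ± 2.36, Aldh3a2 at 12.0 ± 0.126, Aldh3b1 at 7.09 ± 0.768, Aldh6a1 at 5.34 ± 1.67, Aldh4a1 at 5.19 ± 1.05, Aldh16a1 at 4.17 ± 0.315, Aldh5a1 at 3.35 ± 0.616 and Aldh1b1 at 2.91 ± 1.13 FPKM. Neighbours in these orders overlapped in their library ranges, except Aldh3a2 above Aldh4a1 and Aldh5a1 above Aldh2 in KO, and Aldh9a1 above Aldh3a2 and Aldh3a2 above Aldh3b1 in WT. Among all genes of the table ordered by mean FPKM, Aldh2 was number 11405 in KO and number 2055 in WT cells.

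Summed over the 10 members, the transcript level of KO libraries spread around that of WT libraries. The sums were 86.9, 101, 115 and 120 FPKM in KO 1 to 4, against 102, 99.0, 107 and 108 FPKM in WT 1 to 4. Aldh2 made up 1.01% to 1.61% of the sum in KO libraries and 23.3% to 30.4% in WT libraries. The other 9 members summed to 86.0, 99.8, 114 and 119 FPKM in KO 1 to 4, against 71.1, 75.3, 81.6 and 83.1 FPKM in WT 1 to 4, so that the groups did not overlap as deposited. This separation depended on the scaling. FPKM summed over all genes ran from 275389 to 320807 in KO and from 265721 to 279839 in WT libraries. With every library rescaled to the same total, the 9 members summed to 80.5 to 111 in KO and 77.2 to 85.6 in WT libraries, and KO 1 lay inside the WT range. Under median-ratio scaling the sums stayed apart, at 86.8 to 127 in KO and 68.2 to 79.6 in WT libraries.

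**Figure D2:**
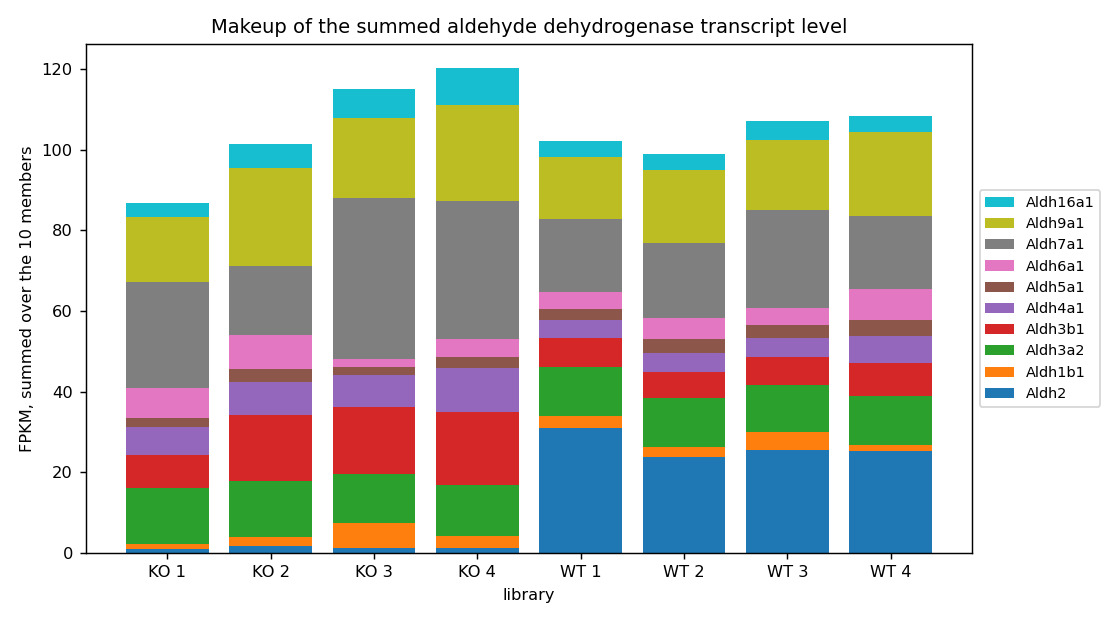
Stacked FPKM of the 10 members in each library, KO 1 to 4 on the left and WT 1 to 4 on the right. The Aldh2 share at the foot of each bar is 1.01% to 1.61% in KO and 23.3% to 30.4% in WT libraries, while the bars reach 86.9 to 120 FPKM in KO and 99.0 to 108 FPKM in WT.

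Aldh1b1 is the mitochondrial enzyme nearest to Aldh2 in sequence and also oxidises acetaldehyde. The transcript (chromosome 4, 45799022 to 45804604, plus strand) was at 1.18, 2.26, 6.12 and 3.00 FPKM in KO 1 to 4, against 2.97, 2.63, 4.39 and 1.66 FPKM in WT 1 to 4. The WT values lay within the KO range, with KO 1 below and KO 3 above every WT library. The log2 fold change was -0.0065 (95% interval -0.81 to 0.79, limma adjusted p = 0.993), an interval that runs from 0.572 to 1.73 times the WT level on the FPKM + 1 scale. With 50 to 264 recovered reads per library Aldh1b1 was among the thinnest measured members, yet KO 1 (50 reads, exact Poisson 95% interval 37.1 to 65.9) and KO 3 (264 reads, 233 to 298) differed beyond counting error. In KO libraries the Aldh1b1 level was 1.34 to 5.12 times that of the remaining Aldh2, and in WT libraries it was 0.0658 to 0.172 times Aldh2.

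Of the enzymes of long-chain lipid aldehydes, Aldh3b1 had the larger difference and Aldh3a2 the smaller. Aldh3b1, a membrane-bound enzyme active on aldehydes from oxidised lipids (chromosome 19, 3913493 to 3929761, minus strand), was at 8.17, 16.6, 16.6 and 18.1 FPKM in KO 1 to 4, against 7.01, 6.32, 6.88 and 8.15 FPKM in WT 1 to 4. KO 2 to 4 were far above the WT range, and KO 1 was just above its top. Its log2 fold change was 0.92 (95% interval 0.38 to 1.46, SE 0.24), with an unadjusted p of 0.0038 and a limma adjusted p of 0.147 over all genes, so that Aldh3b1 did not pass. With length and GC trends removed it was 0.56. Summed macrophage markers, 15 of 16 with a higher KO mean, were at 235 to 1778 FPKM in KO libraries, above WT 2 to 4 (98.9 to 120 FPKM) in all 4, while WT 1 was at 1071 FPKM, and their part in the difference was not tested. The recovered reads of Aldh3b1 missed whole numbers by up to 0.422, and the start and end in the table differ slightly from the GENCODE M21 gene used for its length.

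Aldh3a2, the microsomal fatty aldehyde dehydrogenase whose loss causes Sjögren-Larsson syndrome in humans (chromosome 11, 61223417 to 61267464, minus strand), was the steadiest member. Its level was 14.0, 13.8, 12.2 and 12.6 FPKM in KO 1 to 4, against 12.1, 12.2, 11.9 and 12.0 FPKM in WT 1 to 4. The KO values lay just above the WT values without overlap, and the WT libraries differed by no more than 1.02 times. The log2 fold change was 0.12 (95% interval -0.19 to 0.43, limma adjusted p = 0.636), and it turned to -0.021 when every library was rescaled to the same total.

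Aldh4a1, which completes proline and hydroxyproline breakdown by oxidising pyrroline carboxylate to glutamate in mitochondria (chromosome 4, 139622866 to 139649690, plus strand), was at 7.04, 8.06, 7.84 and 10.8 FPKM in KO 1 to 4, against 4.68, 4.73, 4.58 and 6.77 FPKM in WT 1 to 4. The groups did not overlap, although WT 4 stood close to KO 1. On the log2 scale Aldh4a1 differed by 0.61 (95% interval 0.18 to 1.04, SE 0.19), with an unadjusted p of 0.0103 and a limma adjusted p of 0.177. The annotation also lists a protein-coding model, Gm21969, over the whole Aldh4a1 locus on the same strand, which is not among the genes analysed here. Aldh3a2, Aldh3b1 and Aldh4a1 were the 3 members higher in all KO than in all WT libraries, which 4.76% of all genes were, and Aldh2 the 1 member lower without overlap, as 6.86% of all genes were. All 3 separations also held under median-ratio scaling, and none of the 3 held with equal totals per library, a scaling that moved the median log2 fold change of all genes to -0.17.

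The upstream sequences of Aldh3b1 and Aldh4a1, the members with the highest fold changes, are given so that they can be read beside those values; they are the 250 bases before the RefSeq start on GRCm38.p6, 5′ to 3′ on the gene's strand. Capitals mark GGGCGG or its reverse complement and CCAAT or its reverse complement.
Aldh3b1, chr19:3929779-3930028, minus strand: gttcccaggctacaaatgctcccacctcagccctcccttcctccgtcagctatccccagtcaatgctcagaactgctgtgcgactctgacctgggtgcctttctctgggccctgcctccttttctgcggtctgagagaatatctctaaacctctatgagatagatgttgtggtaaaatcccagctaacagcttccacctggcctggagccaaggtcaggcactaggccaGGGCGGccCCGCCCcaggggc
Aldh4a1, chr4:139622644-139622893, plus strand: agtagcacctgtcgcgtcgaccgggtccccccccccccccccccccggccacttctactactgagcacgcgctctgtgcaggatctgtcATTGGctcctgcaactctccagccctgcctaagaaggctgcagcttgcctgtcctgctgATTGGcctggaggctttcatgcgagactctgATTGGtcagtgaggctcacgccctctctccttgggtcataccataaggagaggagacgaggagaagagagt
The Aldh3b1 window held 2 GGGCGG matches (2 or more in 16.7% of 32817 RefSeq windows of this length) and no CCAAT. The Aldh4a1 window held 3 CCAAT matches (3 or more in 2.79% of windows) and no GGGCGG. Windows of 8 members were scanned, and Aldh2 and Aldh7a1 were not among them. Of the scanned members, Aldh6a1 held 4 CCAAT matches in 1 of its 2 windows, and Aldh3a2, Aldh5a1, Aldh9a1 and Aldh16a1 held 1 each (at least 1 in 33.8% of windows). GGGCGG was found 4 times in the Aldh16a1 window and once each in those of Aldh1b1 and Aldh3a2. Among the scanned members CACGTG was found in the Aldh3a2 window alone (6.02% of windows) and TGACNNNGC in the Aldh9a1 window alone (10.2%). Both strands were searched, the marked matches do not overlap each other, and a match describes letters, not a bound factor.

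Aldh5a1, which turns succinic semialdehyde from GABA into succinate in mitochondria (chromosome 13, 24907579 to 24937661, minus strand), was at 2.05, 3.14, 2.12 and 2.66 FPKM in KO 1 to 4, against 2.54, 3.52, 3.30 and 4.02 FPKM in WT 1 to 4. KO 1 and KO 3 were below every WT library, and KO 2 and KO 4 were within the WT range. Its log2 fold change was -0.32 (95% interval -0.73 to 0.10, limma adjusted p = 0.360), and -0.13 with length and GC trends removed. An antisense gene, 4932702P03Rik, overlaps 6694 bases of the locus. The sources used here do not say whether counting was stranded, so reads of such partners cannot be told apart.

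Aldh6a1, the mitochondrial methylmalonate semialdehyde dehydrogenase of valine and thymine breakdown (chromosome 12, 84430717 to 84451004, minus strand), had the largest spread relative to its mean within the KO group after Aldh1b1 (coefficients of variation 53.3% and 67.6%). It was at 7.41, 8.67, 1.92 and 4.60 FPKM in KO 1 to 4, against 4.20, 5.13, 4.26 and 7.77 FPKM in WT 1 to 4. KO 2 was the highest and KO 3 the lowest of all 8 libraries, so the WT values lay inside the KO range. KO over WT, the log2 fold change was -0.037 (95% interval -0.85 to 0.78, limma adjusted p = 0.961), and it was -0.62 without KO 1 and KO 2. Aldh1b1 and Aldh6a1 were at opposite ends in KO 3, with Aldh1b1 at its highest and Aldh6a1 at its lowest level of any library. The gene Bbof1 on the other strand shares 12171 bases of the Aldh6a1 locus.

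Aldh7a1, which oxidises aminoadipic semialdehyde from lysine and betaine aldehyde from choline (chromosome 18, 56509687 to 56572951, minus strand), was at 26.4, 16.9, 39.8 and 34.1 FPKM in KO 1 to 4, against 18.2, 18.7, 24.2 and 17.9 FPKM in WT 1 to 4. KO 1, KO 3 and KO 4 were above every WT library, and KO 2 was below them all. The log2 fold change was 0.49 (95% interval -0.08 to 1.06, limma adjusted p = 0.313), and it was 0.33 without KO 3. Its neighbour Phax, on the other strand, shares 10509 bases of the locus and is also in the table.

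Aldh9a1 oxidises trimethylaminobutyraldehyde on the way to carnitine (chromosome 1, 167349991 to 167368532, plus strand). It was at 16.3, 24.5, 19.9 and 23.9 FPKM in KO 1 to 4, against 15.3, 18.0, 17.6 and 21.1 FPKM in WT 1 to 4. KO 2 and KO 4 were above the WT range and the groups overlapped, with a log2 fold change of 0.21 (95% interval -0.19 to 0.62, limma adjusted p = 0.512) that was 0.14 without KO 2, 0.14 without WT 1, 0.33 without KO 1 and 0.076 with length and GC trends removed.

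Aldh16a1, a member little characterised as an enzyme (chromosome 7, 45140684 to 45154584, minus strand), was at 3.50, 5.84, 7.21 and 9.14 FPKM in KO 1 to 4, against 4.15, 4.10, 4.59 and 3.83 FPKM in WT 1 to 4. The WT libraries were close together, KO 1 lay below them and the other 3 KO libraries above. The log2 fold change was 0.46 (95% interval -0.09 to 1.01, limma adjusted p = 0.318), and it was 0.29 without KO 4.

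**Figure D3:**
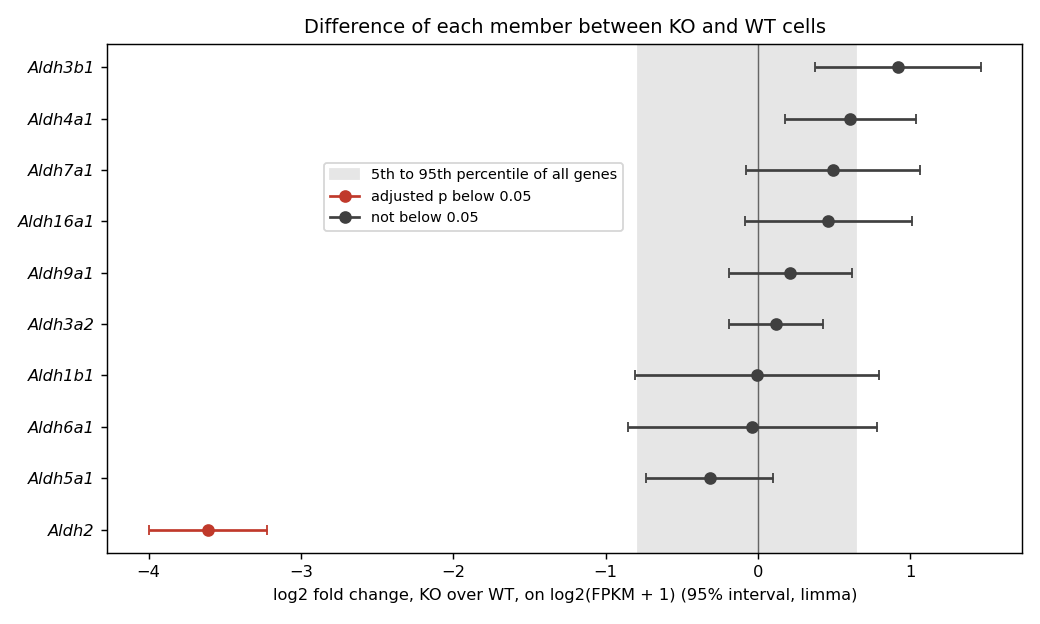
Log2 fold change of each member, KO over WT, on the log2(FPKM + 1) scale, with the 95% interval from limma; the grey band spans the 5th to 95th percentile of all genes (-0.79 to 0.64). Aldh2 at -3.61 is the only member past the threshold, and Aldh3b1 at 0.92 is the only other one outside the band.

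The 9 members besides Aldh2 had 6 higher and 3 lower KO means on the log2(FPKM + 1) scale, with a median log2 fold change of 0.21, against 44.5% of all genes higher and a median of -0.063. An unadjusted p below 0.05 was given to 2 of the 9 (Aldh3b1 and Aldh4a1) and to 19.2% of all genes, 2714 in number. At an adjusted p below 0.05 the 9 gave 0 calls by limma and 0 with limma-voom on recovered reads. They gave 5 with limma-voom when each library was weighted by its scatter about the fit to these same data. Under that weighting 53.1% of all genes were called, and 22.2% as higher in KO.

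For most members, as for most genes, KO libraries varied more than WT libraries. The SD was larger in KO for 8 of the 10 members (81.5% of all genes), the exceptions being Aldh2 and Aldh5a1. Relative to the mean, the spread was larger in KO for 9 members, Aldh2 included (coefficient of variation 24.98% in KO and 12.3% in WT), and the exception was Aldh4a1 (19.5% in KO and 20.3% in WT). The share of all genes was not taken for this measure. KO 1 held the lowest KO value of 7 members, KO 3 that of 2 and KO 2 that of Aldh7a1.

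**Figure D4:**
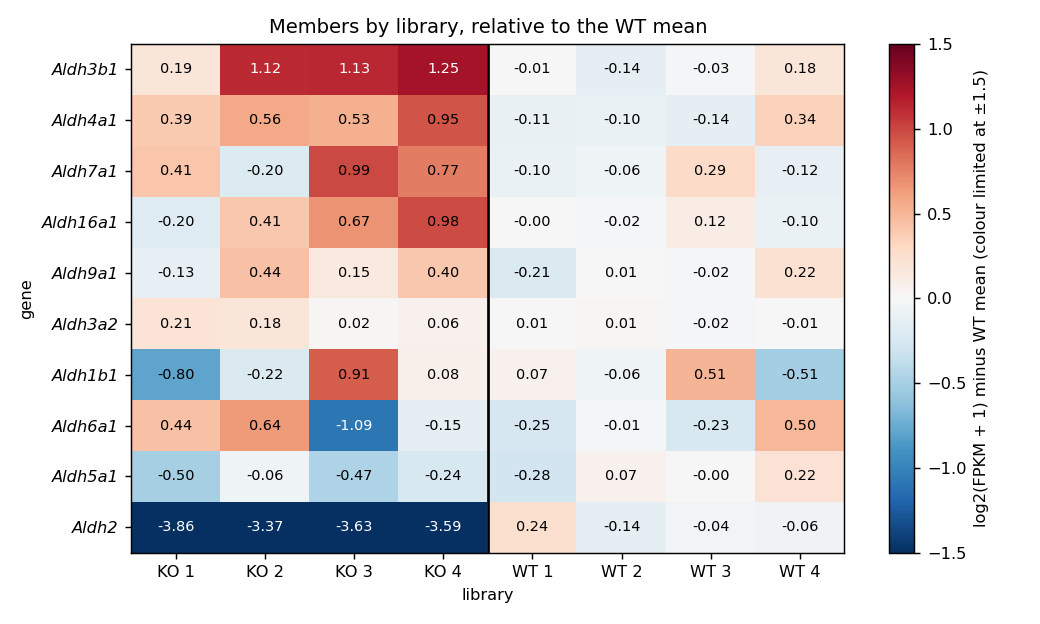
Log2(FPKM + 1) of each member in each library minus its WT mean, KO 1 to 4 left of the line and WT 1 to 4 right of it, with the value in each cell and colours limited at ±1.5. Aldh2 is low in all 4 KO libraries, KO 2 to 4 are high for Aldh3b1, and KO 3 is high for Aldh1b1 (0.91) and low for Aldh6a1 (-1.09).

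Without KO 1 and KO 2, the female libraries, Aldh3b1, Aldh4a1, Aldh7a1 and Aldh16a1 passed as higher in the remaining KO 3 and KO 4 than in the 4 WT libraries, all male. Their log2 fold changes were then 1.19 for Aldh3b1 (limma adjusted p = 0.00324), 0.74 for Aldh4a1 (0.0214), 0.88 for Aldh7a1 (0.00531) and 0.82 for Aldh16a1 (0.00477). In that comparison 44.4% of all genes were called (6275), 17.6% as higher in KO, so the members' 4 calls stand against a high background. Without KO 3 and KO 4 the same 4 members gave 0.65, 0.48, 0.10 and 0.10, none past the threshold, where 0.099% of all genes passed and 0.0212% as higher. The log2 fold change of Aldh2 was -3.61 in both comparisons. Sex, and whatever else sets KO 3 and KO 4 apart from KO 1 and KO 2, cannot be told apart here. A sex covariate adds no separate comparison, because no WT library was female. Its log2 fold changes were those found without KO 1 and KO 2. With sex as a covariate Aldh2, Aldh3b1, Aldh4a1, Aldh7a1 and Aldh16a1 passed, among 34.2% of all genes (4838), and 12.6% of all genes passed as higher.

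The genes that feed or use the same aldehydes were read from lists around each member. Together they held 87 measured genes of 115 listed, of which 53 (60.9%) had a higher KO mean and 34 a lower one. Their median log2 fold change was 0.17, while 44.5% of all genes had a higher KO mean and the median of all genes was -0.063. No gene of these lists passed the threshold by limma (lowest adjusted p 0.0996) or by limma-voom. An unadjusted limma p below 0.05 was given to 20 of the 87 and to 19.2% of all genes. With equal totals per library it was given to 16 of the 87 and to 2848 of all 14145 genes. Without KO 1 and KO 2, 38 of the 87 passed (43.7%, against 44.4% of all genes), and without KO 2 alone 9 did (10.3%, against 8.05%). With sex as a covariate 33 passed (37.9%, against 34.2% of all genes), and with sample-weighted limma-voom 55 did (63.2%, against 53.1%). Over all 8 libraries, in FPKM as deposited, 13 were higher and 2 lower in KO without overlap (14.9% and 2.30%, against 4.76% and 6.86% of all genes). For these lists the separation was not repeated under another scaling. Those of Aldh3a2, Aldh3b1 and Aldh4a1 did not hold with equal totals per library.

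Other enzymes that clear lipid-derived aldehydes had the highest median of the pathway lists, 0.56 over 17 genes, 14 of them with a higher KO mean. Cbr1, a carbonyl reductase, was at 69.9, 71.9, 68.2 and 91.7 FPKM in KO 1 to 4, against 45.6, 44.2, 44.8 and 45.8 FPKM in WT 1 to 4. Its log2 fold change was 0.72 (95% interval 0.37 to 1.07, limma adjusted p = 0.108), and no KO library reached down to the WT level. Gpx4, which reduces lipid hydroperoxides before they break into aldehydes, averaged 293 ± 88.6 FPKM in KO and 159 ± 12.7 FPKM in WT cells (SD, n = 4 each), a log2 fold change of 0.82 (limma adjusted p = 0.170). Cbr3, another carbonyl reductase, averaged 13.3 FPKM in KO and 5.54 FPKM in WT cells (log2 fold change 1.12, limma adjusted p = 0.111).

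Around Aldh4a1, 8 of 10 measured genes of proline and hydroxyproline metabolism had a higher KO mean (median 0.40). Pycrl, which makes proline from pyrroline carboxylate, was at 25.9, 18.5, 31.5 and 33.0 FPKM in KO 1 to 4, against 15.1, 13.9, 15.3 and 13.2 FPKM in WT 1 to 4 (log2 fold change 0.84, limma adjusted p = 0.123). Got2, the mitochondrial aspartate aminotransferase, averaged 64.7 FPKM in KO and 44.5 FPKM in WT cells (0.49, adjusted p = 0.244 by limma). Hoga1, of hydroxyproline breakdown, was below the WT range in all 4 KO libraries, at 8.05, 7.60, 6.63 and 0.585 FPKM in KO 1 to 4, against 10.7, 11.0, 10.5 and 9.68 FPKM in WT 1 to 4 (-1.05, limma adjusted p = 0.281). KO 4 was far lower than the other KO libraries for Hoga1 and highest of them for Aldh4a1.

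Around Aldh6a1, 11 of 18 genes of valine and thymine breakdown had a higher KO mean (median 0.23). The 3 of lowest p were Mcee, the methylmalonyl-CoA epimerase (13.1 FPKM in KO and 8.78 FPKM in WT), Acad8, the isobutyryl-CoA dehydrogenase (10.3 and 7.23 FPKM in KO and WT) and Bckdhb, a subunit of the branched-chain ketoacid dehydrogenase (3.88 and 2.52 FPKM in KO and WT). Each was higher in all 4 KO than in all WT libraries, with limma adjusted p of 0.168, 0.195 and 0.214. A choice by lowest p favours such a separation. These 3 were the only ones of the 18 higher without overlap (16.7%, against 4.76% of all genes). Around Aldh7a1, 8 of 11 genes of lysine breakdown had a higher KO mean (median 0.063). Etfb, which passes electrons from acyl-CoA dehydrogenases, was at 8.91, 4.27, 15.3 and 14.1 FPKM in KO 1 to 4, against 3.13, 4.33, 2.42 and 4.56 FPKM in WT 1 to 4 (log2 fold change 1.24, limma adjusted p = 0.154), overlapping through KO 2. Hadh and Gcdh averaged 21.6 and 11.3 FPKM in KO, and 15.8 and 8.29 FPKM in WT cells.

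On the choline side of Aldh7a1 only 4 of 9 listed genes were measured, 3 of them with a lower KO mean (median -0.29). Slc44a1, a choline transporter, was at 7.12, 9.78, 6.15 and 6.54 FPKM in KO 1 to 4, against 13.2, 14.5, 13.3 and 15.4 FPKM in WT 1 to 4. It was lower in every KO library and had the lowest adjusted p of the pathway lists (log2 fold change -0.86, 95% interval -1.25 to -0.47, limma adjusted p = 0.0996). Slc44a2 averaged 24.6 FPKM in KO and 29.5 FPKM in WT cells, and Sardh 5.37 FPKM in KO and 4.55 FPKM in WT cells.

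The 4 remaining lists concern GABA, carnitine, long-chain aldehydes and acetaldehyde. For GABA, 3 of 5 measured genes had a higher KO mean (median 0.30), with Abat, the GABA transaminase that supplies Aldh5a1, at 8.89, 8.83, 1.77 and 6.37 FPKM in KO 1 to 4 and at 4.01, 1.78, 1.61 and 2.51 FPKM in WT 1 to 4 (limma adjusted p = 0.239). Abat was as low in KO 3 as in WT libraries. For carnitine, 4 of 7 had a higher KO mean (median 0.072), with Slc25a20, the carnitine carrier, at 12.2 FPKM in KO and 7.36 FPKM in WT cells (limma adjusted p = 0.152). Slc22a4, a transporter of carnitine and ergothioneine, and Cpt1a, which loads fatty acids on carnitine, averaged 2.08 and 20.4 FPKM in KO and 5.17 and 23.6 FPKM in WT cells, with WT 4 far above the other WT libraries for Slc22a4 (13.4 FPKM). For long-chain aldehydes, 8 of 11 had a lower KO mean (median -0.27), led by Sgpp2, a sphingosine phosphate phosphatase, at 0.640 FPKM in KO and 1.64 FPKM in WT cells (limma adjusted p = 0.200), with Acer2 at 0.977 and Tmem86a at 13.6 FPKM in KO and at 1.79 and 8.99 FPKM in WT cells. For acetaldehyde and acetate, 3 of 6 had a higher KO mean (median 0.014), and Adh5, the formaldehyde-clearing dehydrogenase, was the 1 gene without overlap, at 30.1, 25.8, 26.9 and 29.0 FPKM in KO 1 to 4, against 20.5, 20.7, 19.2 and 19.5 FPKM in WT 1 to 4 (limma adjusted p = 0.164).

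**Figure D5:**
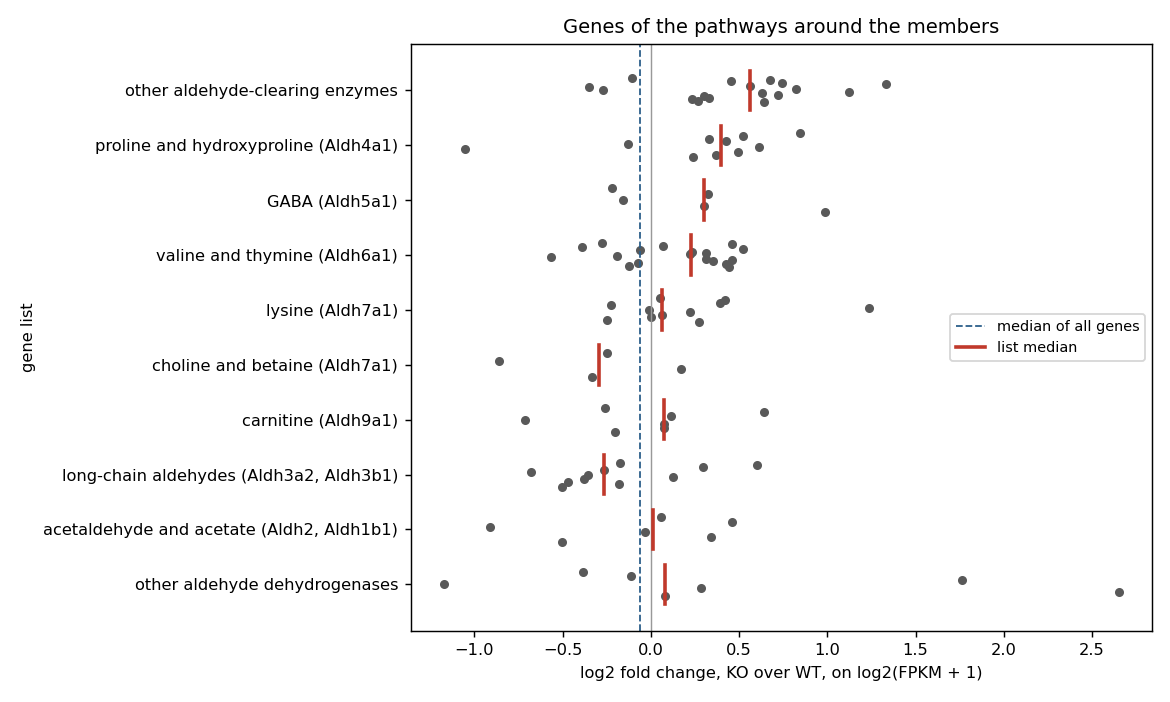
Log2 fold change, KO over WT, of every measured gene in the lists around the members; each point is a gene, red lines are list medians and the dashed line is the median of all genes (-0.063). Medians run from -0.29 for choline and betaine to 0.56 for other aldehyde-clearing enzymes, and no point passes the threshold.

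Among the aldehyde dehydrogenases outside the 10, 7 of 11 listed were measured, 4 with a higher and 3 with a lower KO mean (median 0.078). None passed by limma or limma-voom, and 3 had an unadjusted limma p below 0.05, as 19.2% of all genes did. Without KO 1 and KO 2, and likewise with sample-weighted limma-voom, 3 of the 7 passed, where 44.4% and 53.1% of all genes did. Aldh1a1 and Aldh1a7, cytosolic enzymes close enough in sequence that counting could split their reads, were the widest apart, at 3.81 to 54.4 and 2.00 to 23.7 FPKM in KO libraries and at 0.0818 to 1.46 and 0.279 to 0.954 FPKM in WT libraries. Both were highest in KO 1, which held the lowest KO value of 7 of the 10 members, Aldh3b1, Aldh9a1 and Aldh16a1 among them. Aldh1a3 was at 0.109 to 0.286 FPKM in KO and 0.675 to 4.88 FPKM in WT libraries.

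The 3 genes whose profile over the 8 libraries came nearest to that of Aldh2 were Il1rl1, Clca3b and Ddx3y, among 11104 named genes with a WT mean of at least 1 FPKM. Nearness was the root-mean-square difference of log2(FPKM + 1) centred on the WT mean, which was 1.04 for Il1rl1, 1.06 for Clca3b and 1.10 for Ddx3y, so that none came within 1 log2 unit of Aldh2. Il1rl1, the interleukin-33 receptor, was at 1.87, 3.32, 3.44 and 5.31 FPKM in KO 1 to 4, against 21.9, 22.8, 21.1 and 12.5 FPKM in WT 1 to 4, and passed the threshold (log2 fold change -2.22, limma adjusted p = 0.0397). A low KO level is built into the choice of these genes. With a replicate block, or with length and GC trends removed, Aldh2 alone passed. The same held without KO 1, KO 4, WT 1, WT 2 or WT 3. Clca3b was at 4.86 to 10.0 FPKM in KO and 21.0 to 144 FPKM in WT libraries. Ddx3y is Y-linked and was listed at 0 in the female KO 1 and KO 2, at 1.48 and 4.39 FPKM in the male KO 3 and KO 4, and at 6.15 to 15.5 FPKM in WT libraries. The summed level of 4 Y-linked transcripts was 5.79 and 12.2 FPKM in KO 3 and KO 4, against 19.96 to 34.1 FPKM in WT libraries.

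Aldh2 had a log2 fold change of -4.32 and an adjusted p of 8.22e-17 in the authors' deposited table, KO over WT. The authors' deposited table gives 1.18 for Aldh3b1 with an adjusted p of 0.409 and an up mark, 0.81 for Aldh4a1 with 0.830, and -0.34 for Aldh5a1 with 1.0. Aldh2 is the 1 member with an adjusted p below 0.05 there, among 53 genes in the authors' deposited table.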

How the data were processed

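The authors deposited 1 table of 14145 genes, in FPKM for 8 libraries, with their log2 fold change (infinite for 15 genes), p-value and adjusted p-value; FastQC, STAR 2.4.1d and DESeq2 appear, with GRCm38, in the submitters' processing notes, while counter and annotation were not given in the sources used here. Although the table is called raw counts, its values carry decimals. Multiplied by exon-union lengths from GENCODE M21 (14134 genes), 95.0% to 95.5% of low values fell within 0.05 of a whole read, against 8.24% to 9.46% with a wrong step, which gave the depths. No value column was left without a sample (0). Libraries of a group differed beyond sampling noise (chi-square per gene 11.7 to 329.8).

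Each gene's log2(FPKM + 1) was compared by limma 3.58.1 (R 4.3.3, variance trend, all genes and libraries, Benjamini-Hochberg at 0.05), which understates changes of low genes. The test was checked on simulated counts with the same dispersion in both groups. That check does not cover the larger spread among the KO libraries. Intervals and floors on reads cover counting error only. Genes named were all members, up to 3 per list by lowest p, and the 3 nearest to Aldh2. Members and lists were chosen with earlier results of these data known. Alternatives were pseudocounts of 0.1 and 0.5, an FPKM filter, median-ratio scaling, limma-voom, blocks by replicate number, sex as a covariate, removal of length and GC trends, and leaving out libraries; equal totals, no variance trend and sample weights were added after seeing the data. Python 3.11.15 with pandas 2.3.3, numpy 2.4.6 and matplotlib 3.10.9 was used.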

Additional observations from a re-analysis of the deposited data

Results flagged for a closer look

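In 3 of 20 groups of 4 libraries, 1 library lay far from the others by Dixon's criterion at the 95% level, which chance gives in about 1 group of 20. Aldh3b1 in KO 1 was at 8.17 FPKM, below the other KO libraries. Aldh4a1 in WT 4 was at 6.77 FPKM, above the other WT libraries, and Aldh7a1 in WT 3 was at 24.2 FPKM, above the other WT libraries.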

How the results depend on the processing

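Aldh2 kept its direction and its call under all 21 alternatives, with log2 fold changes of -4.44 to -3.53 (adjusted p 9.23e-06 to 0.00237), and -3.69 to -3.53 when single libraries were left out. The number of members past the threshold stayed at 1 when single libraries were left out and was 5 with a sex covariate, 5 without KO 1 and 2, and 6 with sample-weighted limma-voom, which also called Aldh9a1. The number of genes past the threshold, 11, was 3 with a pseudocount of 0.1, 1 with a replicate block, 4838 with a sex covariate, 7 with limma-voom, 7502 with sample weights, 1 with length and GC trends removed, 20 with equal totals and 6275 without KO 1 and 2, and ranged from 1 to 1139 when single libraries were left out: it was 1139 without KO 2, 8 without WT 4, 3 without KO 3, and 1 without KO 1, KO 4, WT 1, WT 2 or WT 3. The cause was not tested. Aldh1b1 changed sign to 0.058 under median-ratio scaling, 0.49 with a sex covariate or without KO 1 and 2, and 0.045 with sample weights (-0.31 to 0.26 when single libraries were left out). Aldh6a1 changed sign to 0.021 under median-ratio scaling, 0.32 with length and GC trends removed and 0.54 without KO 3 and 4 (-0.26 to 0.31 when single libraries were left out), and Aldh3a2 to -0.021 with equal totals. Whether the replicate numbers pair the libraries was not settled. Correlations of same-numbered libraries' deviations were 0.045, -0.21, 0.61 and -0.044. The value for KO 3 and WT 3 was the highest of any KO and WT pair, while KO 1 correlated best with WT 2 (0.089). With the block, no member's call changed. When single libraries were left out, the others kept their sign: Aldh3a2 0.088 to 0.15, Aldh3b1 0.81 to 1.17, Aldh4a1 0.49 to 0.72, Aldh5a1 -0.41 to -0.24, Aldh7a1 0.33 to 0.72, Aldh9a1 0.14 to 0.33 and Aldh16a1 0.29 to 0.68. With length and GC trends removed Aldh1b1 was at -0.34. Reads were fewest for Aldh1b1 (50 to 264) and, in KO, Aldh2 (83 to 150).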
